A study of Mus musculus with 2 samples.

Results

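The mitotic-gene set was made of 1298 of 9872 passing cell barcodes (13.1%, exact 95% binomial interval 12.5 to 13.8) from the small intestinal epithelium of 1 mouse. A barcode passed with at least 500 UMIs (unique molecular identifiers, so that a captured RNA is counted once), 300 genes and 1000 counts in chromatin peaks. A member had at least 6 UMIs summed over the 9 genes Mki67, Top2a, Knl1, Cenpe, Cenpf, Bub1, Kif15, Kif20b and Anln. Those 9 genes chose the members, so their levels are given only as a description. The animal was 55 weeks old and had a mutation load of 73% in TrnA, which encodes the alanine tRNA of mitochondrial DNA (mtDNA). The series concerns intestinal epithelial cells with an mtDNA mutation in acute colitis, but the labels leave unsaid if colitis was induced here, and no control mouse enters these comparisons. Cells were stained for CD45, CD31, TER-119 and CD326 before sorting, with gates that are not stated, then fixed and processed with 10x Multiome chemistry, in a version that enriches mtDNA. The series holds 2 libraries, 1 for RNA and 1 for open chromatin (ATAC), and all 12363 deposited barcodes are shared by both. Every comparison therefore sets cells of this animal against other cells of it, none measures the mutation, and no p-value was computed. Intervals are exact 95% intervals and cover counting error only.

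The set was compared with the 8574 other passing barcodes. Because 44.6% of those took at least 2% of their nuclear-encoded UMIs from enterocyte markers, it was also compared with 394 others that had at least 5 UMIs of 6 stem-cell genes (stem-gene others) and with 458 others that had at least 6 UMIs of 15 DNA replication genes (S-phase others). Both groups are parts of the other passing barcodes, they share some barcodes, and all 3 comparisons share the set. Within the set, 349 members (26.9%, interval 24.5 to 29.4) had at least 5 UMIs of Lgr5, Smoc2, Htr4, Cyyr1, Tnfrsf19 and Ascl2 and are called stem-high, and the remaining 949 are called stem-low.

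Cells of the intestinal crypt divide quickly and replace the lining of the villus. Before division a cell copies its DNA in S phase, then during G2 it builds the proteins that condense chromosomes, assemble the spindle, hold each chromosome at its kinetochore and finally split the cell. Many genes for these proteins are switched on late in the cycle by the MuvB complex with the transcription factors B-Myb and Foxm1, while the DREAM complex holds them down in resting cells. Their promoters often carry a CHR element (TTTGAA), which MuvB binds, and CCAAT boxes bound by NF-Y.

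The promoters of 4 genes of late division (Ccnb2, Plk1, Cdc20 and Kif18b) and of the linker histone gene H1f5 are shown because they compare RNA with chromatin below. Each runs 5′ to 3′ from 250 bases before to 50 bases after the annotated start, from RefSeq on GRCm38.p6, the assembly that mm10 names. Capitals mark TTTGAA or its reverse complement TTCAAA, and CCAAT or its reverse complement ATTGG.
Ccnb2: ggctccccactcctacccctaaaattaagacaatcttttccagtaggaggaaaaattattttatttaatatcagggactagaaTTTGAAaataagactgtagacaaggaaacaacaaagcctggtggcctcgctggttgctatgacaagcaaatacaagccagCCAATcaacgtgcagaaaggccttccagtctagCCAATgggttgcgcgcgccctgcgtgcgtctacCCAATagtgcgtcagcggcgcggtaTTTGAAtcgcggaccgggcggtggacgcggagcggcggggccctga
Plk1: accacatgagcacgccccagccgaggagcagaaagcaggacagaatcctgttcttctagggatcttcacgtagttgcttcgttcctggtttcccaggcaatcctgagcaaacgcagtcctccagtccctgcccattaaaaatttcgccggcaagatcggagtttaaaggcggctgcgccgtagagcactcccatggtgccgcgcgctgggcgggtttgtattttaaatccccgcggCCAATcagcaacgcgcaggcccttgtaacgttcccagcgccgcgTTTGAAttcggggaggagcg
Cdc20: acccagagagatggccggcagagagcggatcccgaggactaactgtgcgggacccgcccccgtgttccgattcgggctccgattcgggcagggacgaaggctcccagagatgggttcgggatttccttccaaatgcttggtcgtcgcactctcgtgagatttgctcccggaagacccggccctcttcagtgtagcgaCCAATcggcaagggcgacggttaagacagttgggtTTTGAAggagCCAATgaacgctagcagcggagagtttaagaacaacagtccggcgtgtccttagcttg
Kif18b: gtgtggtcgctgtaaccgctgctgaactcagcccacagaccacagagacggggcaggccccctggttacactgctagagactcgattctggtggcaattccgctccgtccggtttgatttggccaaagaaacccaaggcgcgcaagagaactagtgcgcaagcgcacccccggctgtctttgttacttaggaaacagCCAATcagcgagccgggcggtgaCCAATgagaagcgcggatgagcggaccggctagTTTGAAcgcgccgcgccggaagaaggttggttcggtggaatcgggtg
H1f5: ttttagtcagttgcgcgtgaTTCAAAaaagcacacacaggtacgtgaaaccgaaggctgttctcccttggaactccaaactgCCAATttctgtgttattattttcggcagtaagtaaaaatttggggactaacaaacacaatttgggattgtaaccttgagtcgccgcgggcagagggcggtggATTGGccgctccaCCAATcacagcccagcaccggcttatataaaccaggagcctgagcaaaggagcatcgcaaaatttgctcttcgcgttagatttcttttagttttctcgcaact
They lie at chr9:70421505-70421804 on the minus strand (Ccnb2), chr7:122159185-122159484 on the plus strand (Plk1), chr4:118437294-118437593 on the minus strand (Cdc20), chr11:102925075-102925374 on the minus strand (Kif18b) and chr13:21780576-21780875 on the minus strand (H1f5). In Cdc20 the TTTGAA begins at position -18 from the start, with CCAAT at -53 and -8. In Kif18b the TTTGAA begins at position 4 and CCAAT at -53 and -30. Of 133 promoters matched by symbol for genes of the mitotic lists, 59 (44.4%) held TTTGAA, 82 (61.7%) held CCAAT and 47 (35.3%) held both, on either strand. For these genes only the first listed promoter of each symbol was taken. Among all 32851 promoters of the table, with no such limit, the shares were 17.9%, 37.4% and 6.95%. A match describes the letters in this window and is not evidence of binding.

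Members held more material than other barcodes, and the rule favours this because a deeper barcode reaches 6 UMIs more easily. The median of nuclear-encoded UMIs was 3994.5 in the set, 3100.5 in stem-gene others, 3038 in S-phase others and 1262 in all other passing barcodes. The median of peak fragments was 14585 in the set, against 12776 in stem-gene others, 12273 in S-phase others and 6146.5 in all others. Just inside the rule, 92 barcodes had a sum of 6 and a median of 2909.5 nuclear-encoded UMIs, and just outside it 108 barcodes had a sum of 5 and a median of 2704. mtDNA-encoded RNA exceeded 80% of UMIs in 16 members (1.23%) and in 2888 of the other barcodes (33.7%). Levels below are therefore UMIs per 1000000 nuclear-encoded UMIs, written as UPM. The cut for the highest 8% of Scrublet doublet scores took in 854 barcodes, 234 members (18.0%) and 620 others (7.23%), and doublets were not removed. Scrublet marked 0 of 9872 barcodes at its automatic threshold, so a top score here and below is a rank and not a doublet call. The part that depth and doublets have in each result was not tested except where values are given.

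The rule genes describe the set as follows. Mki67, the proliferation marker, stood at 517 UPM in the set and 59.2 in other passing barcodes, and Top2a, the topoisomerase that untangles sister DNA, at 824 and 56.3. Knl1, the scaffold of the outer kinetochore, stood at 408 in the set and 16.3 in the others, Cenpe, a kinetochore motor, at 346 and 19.2, and Kif20b, a kinesin of cytokinesis, at 335 and 20.8. The 4 genes that mark the label are all rule genes, so they cannot check it. Genes outside the rule were read instead, and they go against a label of G2 and mitosis alone, since of the members 656 (50.5%, interval 47.8 to 53.3) also had at least 6 UMIs of the 15 replication genes.

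Against all other passing barcodes, 1031 of 12784 genes with at least 50 UMIs over both groups were at least 2-fold higher in the set (8.06%) and 1328 were at least 2-fold lower (10.4%), with a median log2 ratio of 0.13. Per UMI of all kinds, which counts the abundant mtDNA-encoded RNA of the other barcodes, the counts were 4657 higher and 536 lower and the median gene moved to 0.79, so ratios are given relative to nuclear-encoded RNA. The 7 mitotic lists held 159 genes outside the rule, of which 157 passed the UMI minimum. Of these, 124 (79.0%) were at least 2-fold higher, 89 at least 4-fold and 57 at least 8-fold, none was 2-fold lower, and their median log2 ratio was 2.37. Against stem-gene others, where 4.34% of 10584 genes were 2-fold higher and 3.27% lower, 107 of 156 were higher and 1, Tacc1, was lower, with a median of 1.86. Against S-phase others, where 2.44% of 10596 genes were 2-fold higher and 0.84% lower, 88 of 156 were higher and none was lower, with a median of 1.21. Summed nuclear-encoded UMIs were 6341058 in the set, 1455559 in stem-gene others and 1725388 in S-phase others. A gene could therefore pass the UMI minimum through the set alone, as Kif14 and Ccnb1 did. Counts against these smaller groups, here and per list below, are given as a description only.

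Kinetochore genes build the attachment of each chromosome to the spindle. Of 34 kinetochore and centromere genes tested, 31 were at least 2-fold higher than in all other barcodes (median log2 2.27), 22 of 33 than in stem-gene others (1.37) and 16 of 33 than in S-phase others (0.95). Ndc80, which couples the kinetochore to microtubules, had 696 UMIs (110 UPM) in the set and 74 (4.82 UPM) in other barcodes, a log2 ratio of 4.51 (interval 4.16 to 4.88). It stood 2.98 above S-phase others, where it had 24 UMIs. Nsl1 and Nuf2, further outer kinetochore subunits, stood at 3.90 and 3.84. Cenpa, the centromeric histone H3 variant, had 1056 UMIs in the set (167 UPM) and 311 in all others (20.3 UPM), with 16.5 UPM in stem-gene others and 16.2 in S-phase others. Its log2 ratio was 3.34 against stem-gene others, 3.36 against S-phase others and 3.04 against all others.

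The spindle checkpoint holds anaphase back until each chromosome is attached. Of 21 genes tested, 14 were at least 2-fold higher in the set than in all others (median log2 1.56), 13 than in stem-gene others (1.30) and 10 than in S-phase others (1.00). Sgo2a, a shugoshin that protects centromeric cohesin, had 508 UMIs in the set and 73 in the others (log2 4.07), and the checkpoint kinase Ttk had 861 and 128 (4.03). Bub1b, the BubR1 checkpoint protein, stood at 3.95 and Espl1, the separase that cuts cohesin, at 3.94. Cdc20, the activator of the anaphase-promoting complex that is restrained by the checkpoint, had 268 UMIs in the set and 131 in all others. The Cdc20 ratio was 2.31 against all others, 2.94 against stem-gene others (8 UMIs) and 2.73 against S-phase others (11 UMIs).

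Mitotic kinesins, the motors that build and move the spindle, had the highest list median, 3.70, with 11 of 12 tested at least 2-fold higher than in all others. Against stem-gene others the count was 11 of 12 (median 3.45) and against S-phase others 10 of 12 (2.72). Kif18b, a microtubule-shortening motor, had 279 UMIs in the set and 23 in the others, a log2 ratio of 4.88 (interval 4.26 to 5.56). Kif14, which acts in the midbody, had 450 UMIs in the set and 41 in the others (4.73). It had 2 UMIs in stem-gene others (5.69, interval 3.83 to 8.74) and 4 in S-phase others (4.94). Kif4, a chromosome arm and midzone motor, stood at 4.11 and Kif18a, which dampens chromosome movements, at 3.97. Kif11, the bipolar spindle motor, was detected in 41.1% of members after each barcode had been thinned to 1500 nuclear-encoded UMIs. The thinned share was 3.44% in all others, 8.29% in S-phase others and 0.55% in 182 other barcodes rich in enterocyte markers, a cell type that does not divide.

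Of 30 spindle and centrosome genes, 25 were at least 2-fold higher than in all others (median log2 2.84). Hmmr, a spindle assembly protein, had 801 UMIs in the set and 99 in the others (log2 4.29), and Tpx2, which activates Aurora A on the spindle, had 1042 and 129 (also 4.29). Aspm, a spindle pole protein, stood at 4.15 and Prc1, which bundles the spindle midzone, at 3.86. Against S-phase others 18 of 30 were higher, among them Hmmr at 4.45 (10 UMIs in those barcodes) and Tpx2 at 3.76 (21 UMIs). Tacc1, a centrosomal coiled-coil protein, was the exception, with 16.7 UPM in the set and 38.5 in stem-gene others, a log2 ratio of -1.20.

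Kinases, cyclins and phosphatases of mitosis were at least 2-fold higher in 23 of 26 tested against all others (median log2 2.12), in 22 against stem-gene others (2.33) and in 20 against S-phase others (1.81). Cdc25c, the phosphatase that switches on Cdk1, had 214 UMIs in the set and 21 in the others (log2 4.62), and Ccnf, the cyclin of an SCF ubiquitin ligase, had 589 and 63 (4.50). Genes commonly used to mark G2 and mitosis had lower ratios than these. Aurka, the centrosomal Aurora kinase, had 308 UMIs in the set and 84 in all others (3.15), and Cdk1, the mitotic kinase, had 466 and 216 (2.38). Plk1, the Polo kinase, had 227 and 115 UMIs (2.26), Ccnb1, cyclin B1, had 284 and 173 (1.99) and Ccnb2, cyclin B2, had 330 and 295 (1.44). Ccnb1 thus lay just under 2 on the log2 scale against all others, but against stem-gene others it stood at 3.70 (interval 2.47 to 5.34) on 5 UMIs and against S-phase others at 3.27 on 8 UMIs. These genes were sparse in single members. After thinning, Plk1 was seen in 6.11% of members, Ccnb1 in 7.38%, Aurka in 8.25% and Cdc20 in 6.66%, against 1.00%, 1.22%, 0.77% and 1.00% of all others. In S-phase others the thinned share of Plk1 was 0.46%.

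Cytokinesis genes were at least 2-fold higher in 13 of 16 tested against all others (median log2 3.39), in 13 against stem-gene others (2.96) and in 12 against S-phase others (2.23). Depdc1a had 752 UMIs in the set and 77 in the others (4.56), and Iqgap3, an actin-binding scaffold, had 441 and 56 (4.25). Diaph3, a formin of the contractile ring, had 477 UPM in the set, 250 in S-phase others, 128 in stem-gene others and 52.0 in all others. Its ratio against S-phase others was 0.93, short of 2-fold.

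Condensin, cohesin and chromatid genes had the lowest medians of the 7 lists, with 11 of 22 at least 2-fold higher against all others (median 1.02), 8 against stem-gene others (0.41) and 6 against S-phase others (0.14). Esco2, which acetylates cohesin during S phase, stood at 3.41 against all others and the condensin I subunit Ncapg, with 138 UPM in the set and 15.7 in the others, at 3.13. Ncapg was 1.81 above S-phase others.

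Among 25 cell cycle transcription factors, 10 were at least 2-fold higher against all others (median 0.74). Foxm1, which drives G2 and M genes, had 244 UMIs in the set (38.5 UPM), against 3 in stem-gene others, 4 in S-phase others and 38 in all others (2.48 UPM). Its log2 ratio was 4.22 (interval 2.66 to 6.51) against stem-gene others, 4.05 (2.68 to 5.94) against S-phase others and 3.96 against all others. After thinning it was seen in 6.26% of members, 0.80% of stem-gene others and 0.50% of all others. Mybl1, a Myb factor, and the repressors E2f7 and E2f8 of late S phase stood at 2.78, 3.20 and 2.34 against all others but at 0.38, 0.74 and 0.59 against S-phase others. E2f1, which drives entry into S phase, had 15.3 UPM in the set and 39.4 in S-phase others (-1.37, interval -1.83 to -0.90). The latter were chosen by replication genes, so this difference may follow from the choice.

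Outside the lists, the named gene with the highest ratio was Pif1, a DNA helicase, with 262 UMIs in 16.3% of members and 6 UMIs in 0.07% of all others (log2 6.72, interval 5.58 to 8.18). Stem-gene and S-phase others held 0 UMIs of Pif1. With a floor of 3 counts in place of 0, its log2 ratio was 4.33 against stem-gene others and 4.57 against S-phase others. Both values depend on that floor and are not exact lower limits. Neil3, a DNA glycosylase that acts at crosslinks in replicated DNA, had 2163 UMIs in the set and 329 in the others (3.99). Ankle1, a structure-specific nuclease, stood at 4.60, Prr11 at 4.44 and Cdca2, a chromatin-bound partner of a phosphatase, at 4.31. Genes at the other end were Lmx1a (6 UMIs in the set and 212 in the others), Susd2 (15 and 286), Saa1, an acute-phase protein (16 and 291), and Tmprss15, the enteropeptidase of enterocytes (120 and 2079).

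Replication genes copy the DNA before division. Of 66 tested, 39 were at least 2-fold higher against all others (median log2 1.12), 5 higher and 1 lower against stem-gene others (0.06), and 1 higher and 14 lower against S-phase others (-0.55). Over all genes, 4.34% were higher and 3.27% lower against stem-gene others, and 2.44% and 0.84% against S-phase others. The S-phase others were chosen by 15 of these genes, so that the counts against them partly follow from the choice. Genes outside those 15 may still follow the choice, since the median sum of the 15 was 10 in that group and 6 in the set. Among them, Ung, which removes uracil from DNA, had 9.15 UPM in the set and 36.5 in S-phase others (-1.997). Dbf4, which activates the kinase that fires origins, was the 1 gene higher than in S-phase others, with 106 and 41.7 UPM (1.35). Pcna, the sliding clamp, had 86.6 UPM in the set, 83.8 in stem-gene others, 117 in S-phase others and 62.4 in all others, so no ratio reached 2-fold.

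Fork and recombination repair genes were at least 2-fold higher in 30 of 38 tested against all others (median 1.85), in 15 of 37 against stem-gene others (0.62) and in 3 of 37 against S-phase others (0.05). Parpbp, which restrains recombination, had 122 UPM in the set, 13.3 in S-phase others and 5.15 in all others. Fancd2 and Polq, of crosslink and end-joining repair, stood at 3.76 and 3.65 against all others and at 1.72 and 1.22 against S-phase others.

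The replication-dependent histone genes were listed after the data were seen. These mRNAs lack a poly(A) tail in S phase for the most part, so a polyA library reads only part of them. Of 34 genes tested, 29 were at least 2-fold higher in the set than in all others (median log2 1.83), and the 67 listed genes summed to 828 UPM in the set and 337 in all others. Over all 67 listed genes the sum was 828 UPM in the set, 219 in stem-gene others and 240 in S-phase others. Against those smaller groups 25 genes passed the UMI minimum, several of them through the set alone, so no count is given. H1f5, the linker histone H1.5, had 563 UMIs in the set (88.8 UPM), 14 in stem-gene others, 22 in S-phase others (12.8 UPM) and 213 in all others (13.9 UPM). H2bc4 was an exception, with 58.4 UPM in the set and 89.8 in all others (-0.62). Near-identical copies in the histone clusters may share reads, so counts of single genes are uncertain.

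The rule sum itself was used to bin the members, so what follows is a description, and the sum also follows depth. Over 3 bins of the rule sum, 302 members had sums of 6 to 9, 595 had 10 to 19 and 401 had 20 or more, with median nuclear-encoded UMIs of 2989.5, 3629 and 5662. The summed level of Plk1, Ccnb1, Ccnb2, Aurka and Cdc20 was 52.0 UPM in barcodes with sums of 0 to 5 and 146 (interval 124 to 171), 225 (207 to 244) and 254 (235 to 273) in the 3 bins. The 15 replication genes stood at 599 UPM below the rule and then at 2060, 1727 and 1485. E2f1 stood at 6.90, 24.95, 15.9 and 10.8 and Mcm6, a replicative helicase subunit, at 39.1, 97.0, 63.2 and 58.9. Pif1 stood at 0.39, 24.0, 38.8 and 50.7 and Cenpa at 20.3, 115, 166 and 188.

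**Figure D1:**
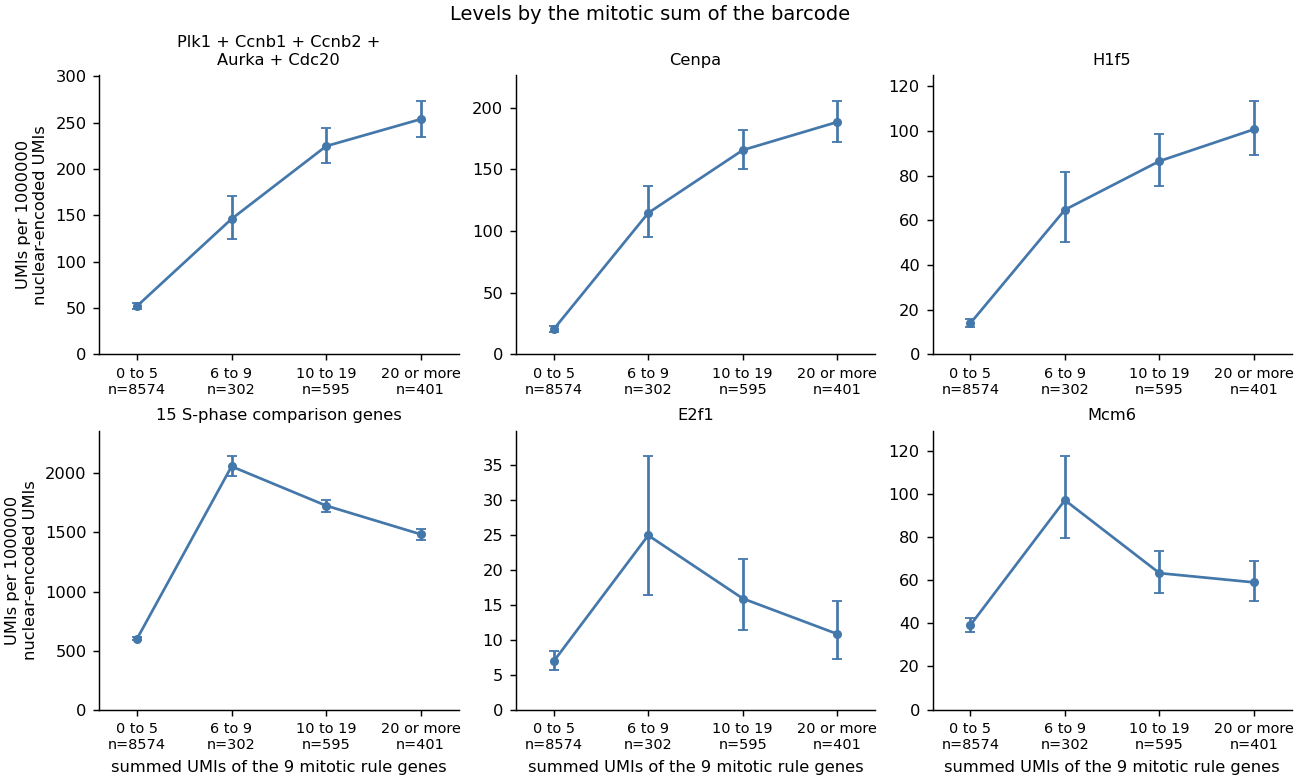
Each panel gives UMIs per 1000000 nuclear-encoded UMIs (vertical axis, from 0) for barcodes grouped by the summed UMIs of the 9 rule genes (horizontal axis), with exact 95% counting intervals. The first group is the 8574 other passing barcodes and the other 3 are the set. The upper panels, which hold mitotic genes, Cenpa and the histone gene H1f5, have their highest level at sums of 20 or more. The lower panels, which hold genes of S phase, have it at sums of 6 to 9, where E2f1 reached 24.95 and Mcm6 97.0.

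A split of the set at its median share of S-phase RNA was added after the data were seen, with 649 members above it (S-rich) and 649 at or under it (S-poor), and median nuclear-encoded UMIs of 3777 in S-rich and 4258 in S-poor members. By construction the 15 replication genes differed, at 2887 and 596 UPM. Among genes that did not make the split, E2f1 had 27.6 UPM in S-rich and 4.20 in S-poor members, and Ccne2, cyclin E2 of S-phase entry, had 70.5 and 11.1. Cdc20 stood at 23.6 UPM in S-rich and 59.1 in S-poor members, Ccnb1 at 29.6 and 58.5, Cenpa at 113 and 214 and Pif1 at 18.96 and 61.5, all on the side of the S-poor members. Aurka (34.9 and 60.9), Ccnb2 (39.9 and 63.0), Hmmr (101 and 149) and Tpx2 (145 and 182) lay on the same side. Some mitotic genes stood at similar levels in both, among them Foxm1 (40.3 and 36.9), Kif11 (346 and 321) and Ccna2, cyclin A2 (82.8 and 86.7). The sum over the mitotic lists outside the rule went the other way, with 20117 UPM (interval 19957 to 20278) in S-rich and 18715 (18568 to 18862) in S-poor members. The rule genes themselves summed to 3470 and 3395 UPM, so the rule genes were near equal. Neil3 had 455 UPM in S-rich and 238 in S-poor members. The histone gene H1f5 had 107 and 72.0, and the replication-dependent histone genes summed to 872 and 789.

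S-rich and S-poor members also differed in lineage RNA. Goblet markers, of mucus-secreting cells, summed to 4452 UPM in S-rich and 11530 in S-poor members, and enterocyte markers to 2888 and 5391. Much of the goblet RNA lay in few members. In 73 members (5.62%, interval 4.43 to 7.02) it reached at least 2% of nuclear-encoded UMIs, and these held 60.3% of the set's goblet UMIs. Of those 73, 13 were S-rich and 60 S-poor. Atoh1, the factor that commits cells to the secretory lineage, stood at 60.8 UPM in them and 13.1 in the remaining members, and Spdef, which matures goblet and Paneth cells, at 96.9 and 13.4. Their median rule sum was 13 and their median of nuclear-encoded UMIs was 5797, and 49 of the 73 (67.1%) lay among the top Scrublet scores, against 15.1% of the remaining members. Whether they are single dividing cells or droplets with a second cell was not tested. Without them S-rich members held 2954 and S-poor members 4235 UPM of goblet markers.

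Members carried less RNA of mature cells than the other barcodes. Of 24 enterocyte markers, 23 were at least 2-fold lower than in all others (median log2 -2.03), as were 11 of 15 goblet markers (-1.40), 16 of 18 Paneth markers (-1.40), 18 of 19 enteroendocrine markers (-1.88) and 13 of 16 tuft markers (-1.65). Slc15a1, the peptide transporter, had 65.4 UPM in the set and 351 in the others (-2.42), Slc6a19, a neutral amino acid transporter, 28.5 and 148 (-2.38), and Alpi, the brush border alkaline phosphatase, 27.3 and 135 (-2.30). Against the progenitor groups, enterocyte markers had medians of -0.00 against stem-gene others and -0.05 against S-phase others, and goblet markers had 0.25 and 0.57. Paneth markers were lower in 16 of 18 against stem-gene others (-1.87), a group in which Paneth-rich barcodes held 90.4% of the Paneth UMIs. After thinning, Lyz1 (Paneth lysozyme) was seen in 20.0% of members and 24.2% of enterocyte-marker others, and Muc2 (goblet mucin) in 31.8% and 34.1%. Enterocytes should lack both, so a UMI of these genes does not by itself mark a lineage. Where this RNA came from was not tested.

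CDK inhibitors hold cells in G1. Cdkn1a, the p21 inhibitor, had 27.0 UPM in the set and 78.0 in all others (log2 -1.53), and Cdkn2b, the p15 inhibitor, had 21.3 and 49.6 (-1.22). Against the progenitor groups Cdkn1a did not differ by 2-fold (29.5 UPM in stem-gene others and 27.2 in S-phase others), and Cdkn2b was higher than in stem-gene others, where it had 8.93 (1.25, interval 0.43 to 2.20). Klf4, a factor of cells that leave the cycle, stood at -1.49 against all others and Creb3l3, a regulator of lipid genes in enterocytes, at -2.19. Of 18 p53 and apoptosis genes, 2 were at least 2-fold higher and 1 lower, with a median of -0.20, beside 8.06% higher and 10.4% lower over all genes.

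Dividing cells make ribosomes and nucleotides. Over all genes, 8.06% were at least 2-fold higher than in all others, 4.34% than in stem-gene others (3.27% lower) and 2.44% than in S-phase others. Of 46 ribosome biogenesis genes, 11 were at least 2-fold higher than in all others (median log2 0.86), 2 than in stem-gene others (0.03) and none than in S-phase others (-0.18). The last 2 counts lay near the shares over all genes. Of 28 nucleotide synthesis genes, 8 were higher than in all others (0.76), and of 12 serine and one-carbon genes 4 were (0.71). Of 41 Wnt targets and stem genes outside the rule, 13 were higher than in all others (0.77), while 16 of 38 were lower than in stem-gene others (-0.77), a group chosen by stem genes. Olfm4, a crypt base marker, had 1021 UPM in the set, 2817 in stem-gene others, 1636 in S-phase others and 851 in all others.

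mtDNA-encoded RNA was the readout nearest to the mutation. mtDNA-encoded mRNA per nuclear-encoded UMI was 0.124 in the set, 0.121 in stem-gene others, 0.127 in S-phase others and 0.395 in all others, a log2 ratio of -1.67 against the last. The log2 ratio was 0.03 against stem-gene others and -0.03 against S-phase others, and that against all others was -0.51 without barcodes over 80% mtDNA-encoded UMIs. Within bins of nuclear-encoded UMIs the order of the set and the progenitor groups was not constant. At 1000 to 2000 UMIs the values were 0.162 in 106 members, 0.114 in stem-gene others, 0.158 in S-phase others and 0.397 in all others. At 2000 to 4000 they were 0.118 in 542 members, 0.130, 0.140 and 0.193 in those groups, and at 4000 to 8000 they were 0.122 in 484 members, 0.0993, 0.103 and 0.173. mtDNA-encoded rRNA per nuclear-encoded UMI was 0.968 in the set, 0.964 in stem-gene others, 1.07 in S-phase others and 1.92 in all others. Its log2 ratios against these groups, in that order, were 0.01, -0.15 and -0.99. Within the set, mRNA per nuclear-encoded UMI was 0.107 in stem-high and 0.133 in stem-low members (-0.31), and rRNA 0.762 and 1.08 (-0.50). For mRNA the values were 0.0855 and 0.126 at 2000 to 4000 UMIs and 0.0971 and 0.134 at 4000 to 8000. Against all others, the 13 mRNAs moved together, from -1.54 for mt-Nd5, a complex I subunit, to -1.75 for mt-Co3, a complex IV subunit. mt-Nd6, a complex I subunit encoded on the other strand, lay outside the range of the other 12 in the progenitor comparisons, with 542 UMIs in the set and log2 ratios of -0.38 (interval -0.64 to -0.12) against stem-gene others and -0.50 (-0.74 to -0.27) against S-phase others, where the other 12 spanned -0.08 to 0.09 and -0.09 to 0.02. How reads from opposite strands were counted is not given in the sources used here, so the mt-Nd6 count is uncertain. mt-Ta had 6 UMIs in the set and 23 in all others, and these counts say nothing of the mutation. Of 28 genes for mtDNA maintenance and transcription, 3 were at least 2-fold higher than in all others and 1 lower, Ppargc1a, a driver of mitochondrial biogenesis, with 85.5 and 222 UPM (-1.38), again beside 8.06% higher and 10.4% lower over all genes.

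**Figure D2:**
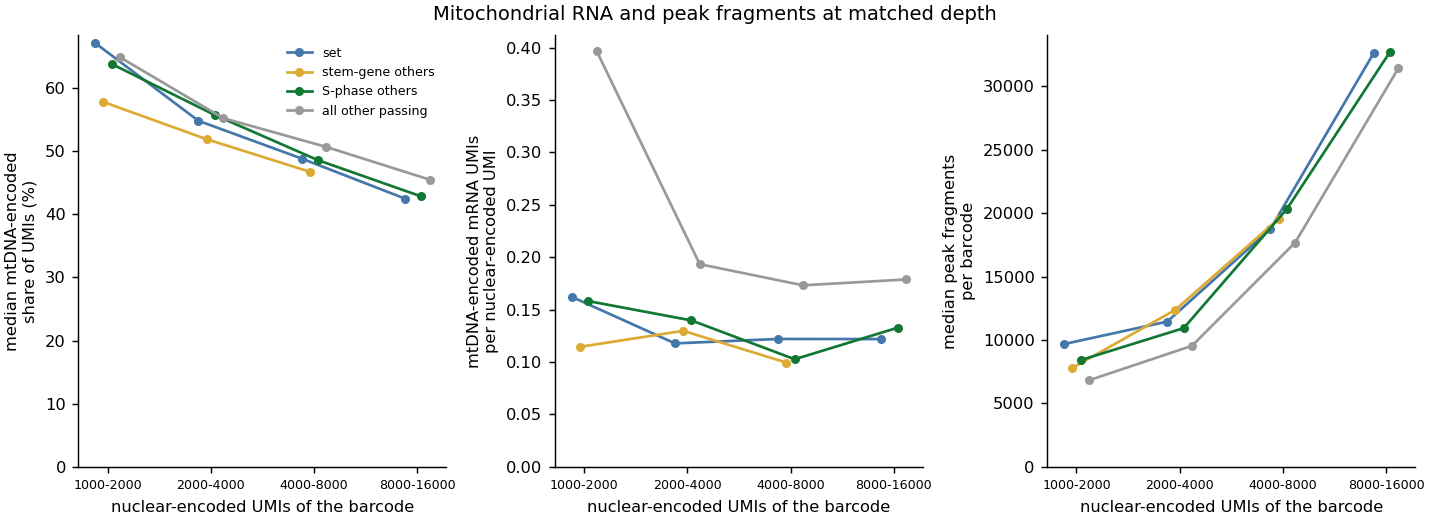
Barcodes are binned by nuclear-encoded UMIs (horizontal axis) and points give, from left to right, the median mtDNA-encoded share of UMIs in percent, mtDNA-encoded mRNA UMIs per nuclear-encoded UMI, and median peak fragments per barcode. At 2000 to 4000 UMIs the set (blue) holds 0.118 mRNA UMIs per nuclear-encoded UMI and all other barcodes 0.193, while the set lies above stem-gene others in some bins and below them in others.

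Chromatin was read from peaks within 500 bp of a gene start, as fragments per 1000000 peak fragments (FPM). Across 18492 genes with such a peak, 113 were at least 2-fold higher in the set than in all others (0.611%) and 351 lower (1.9%), with a median log2 ratio of 0.11. Over all peaks, 1.71% of 117447 were higher and 9.99% lower against all others, 1.4% and 2.15% against stem-gene others, and 0.137% and 0.23% against S-phase others. Of 150 genes of the mitotic lists, no promoter was at least 2-fold higher or lower, and their median was 0.19, beside 0.11 over all promoters. Against stem-gene others none of 150 was past 2-fold either, where 0.243% of 15631 promoters were higher and 0.755% lower, and none against S-phase others, where 0.0383% of 15686 were higher and 0.185% lower. Their promoter peaks summed to 6322 FPM in the set and 5701 in the others (log2 0.15, interval 0.14 to 0.16), while their RNA summed to 19380 and 6731 UPM. The 4 mitotic promoters printed above lay above the list median of 0.19, but single promoters were chosen after their values were seen. Their place above it is therefore a description only. Ccnb2 had 684 fragments (28.7 FPM) in the set and 1140 (15.9 FPM) in the others (0.85, interval 0.71 to 0.99). Cdc20 stood at 0.63, Plk1 and Kif18b at 0.61, and against S-phase others Ccnb2 at 0.57 and Plk1 at 0.30. Ccnb1 (43.1 and 44.4 FPM, -0.04) and Hmmr (37.5 and 35.2, 0.09) lay near 0, and their RNA ratios were 1.99 and 4.29.

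**Figure D3:**
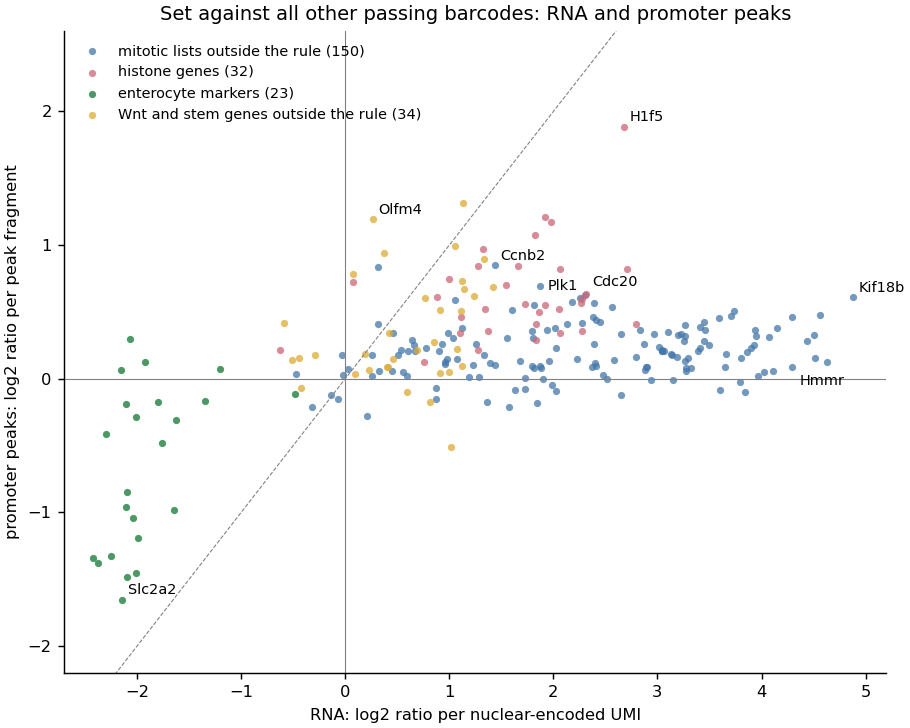
Each point is a gene, with its log2 ratio of RNA per nuclear-encoded UMI on the horizontal axis and of promoter fragments per peak fragment on the vertical axis, set over all other passing barcodes. The dashed line marks equal ratios. Mitotic-list genes (blue) reach 4.88 in RNA (Kif18b) and at most 0.85 in promoter peaks (Ccnb2), while H1f5 and several enterocyte markers are displaced on both axes.

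Histone promoters were read in the same way. The H1f5 promoter had 339 fragments in the set (14.2 FPM) and 276 in all others (3.85 FPM), a log2 ratio of 1.88 (interval 1.65 to 2.12), with 5.74 FPM in stem-gene others (1.31) and 6.71 in S-phase others (1.08). Of 59 histone genes with a promoter peak, 5 reached 2-fold against all others (median 0.56, beside 0.11 over all promoters). Against S-phase others 2 of 58 did (0.40, beside 0.03). Neighbouring histone genes share peaks, so these counts are not independent. The peak with the highest ratio of all, 2.15 (interval 1.81 to 2.50), was chr13:21781970-21782619, 1076 bp from the start of H3c11 and near the H1f5 promoter, with 7.38 FPM in the set and 1.66 in the others. Other promoters past 2-fold against all others were those of Tk1, thymidine kinase (1.35), Olfm4 (1.19) and Rad54l, a recombination motor (1.12). Tk1 had 14.1 FPM in the set, 10.2 in stem-gene others and 14.0 in S-phase others. In the same order Olfm4 had 24.7, 29.5 and 23.8, and Rad54l 18.6, 12.3 and 14.3. Among promoters lower than in all others were Tmprss15 (-2.47), the glucose transporter gene Slc2a2 (-1.65) and Apoa1, an apolipoprotein of enterocytes (-1.49). Of 23 enterocyte promoters, 8 were at least 2-fold lower. Slc2a2 had 1.17 FPM in the set, 1.48 in stem-gene others and 1.71 in S-phase others, and Apoa1 had 5.99, 5.25 and 5.71.

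Stem-high and stem-low members were compared in the same way. Stem-high members were deeper, with medians of 5036 and 3650 nuclear-encoded UMIs and 17636 and 13273 peak fragments, and there was no gap at the threshold, with 63 members at a stem sum of 5 and 88 at 4. Of 10036 genes, 195 were at least 2-fold higher in stem-high members (1.94%) and 71 lower (0.707%), with a median of -0.05. Per UMI of all kinds the counts were 361 and 22, with a minimum of 200 UMIs 66 and 11, and without the top Scrublet scores 168 were lower. Of 35 Wnt targets and stem genes outside the rule, 16 were higher and none lower (median log2 0.97). Msi1, an RNA-binding protein of stem cells, had 101 UMIs (45.3 UPM) in stem-high and 42 (10.2 UPM) in stem-low members, a log2 ratio of 2.15 (interval 1.62 to 2.70). Sorbs2, an adaptor of the actin cytoskeleton, had 1056 UMIs in stem-high and 546 in stem-low members (1.83), and Olfm4 had 1798 and 600 UPM (1.58). Slc14a1, a urea transporter, stood at 1.99 and Igfbp4, a secreted binding protein that dampens Wnt and IGF signals, at 1.84. Cdk6 and Ccnd3, a kinase and a cyclin of G1, stood at 1.25 and 1.08, Timeless, of the replication fork, at 1.23, and Cdkn2b at -1.05.

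Mitotic genes were set against the stem sum next. Of 156 genes of the mitotic lists, 1 was at least 2-fold higher in stem-high members (Tacc1, 1.16) and none lower, with a median of -0.16. Over all genes, 1.94% were higher and 0.707% lower. Aurka stood at 35.9 UPM in stem-high and 55.5 in stem-low members (-0.63), Cdc20 at 30.5 and 48.7 (-0.67), and Ccnb1 at 34.5 and 50.4 (-0.54), none past 2-fold. The counts changed when stem sums of at least 8 were set against 0 or 1. Then 2 of 26 kinases, cyclins and phosphatases (median -0.45) and 1 of 21 checkpoint genes were lower, and 1 of 30 spindle genes was higher. Replication genes had a median of 0.21, with Mcm6 at 93.3 UPM in stem-high and 53.03 in stem-low members (0.81). Among S-rich members 32.2% were stem-high, and among S-poor members 21.6%.

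Paneth cells neighbour stem cells at the crypt base. Of 17 Paneth markers, 15 were at least 2-fold higher in stem-high members (median 1.66), among them Lyz1 with 4997 and 1507 UMIs (2.61). Few barcodes held most of it in stem-high members, where 26 members reached at least 2% of Paneth UMIs (7.45%) and held 83.8%. In stem-low members, 10 did (1.05%) and held 34.3%. Of those 36 members, 20 (55.6%) lay among the top Scrublet scores. Without the top Scrublet scores 13 of 14 Paneth markers were higher (median 1.24), and with at least 2000 nuclear-encoded UMIs 15 of 17 (1.68). Without the 36 members, an alternative chosen after the data were seen, 0 of 13 Paneth markers were higher (median -0.16), but that removal used the same markers and is given as a description only. For Wnt and stem genes the count was then 16 of 34 (0.99). Promoter peaks of 3 Paneth genes were sparse. Lyz1 had 6.83 FPM in stem-high members (interval 5.14 to 8.89) and 6.90 in stem-low members (5.67 to 8.32). Itln1, a lectin, had 9.19 (7.21 to 11.5) and 7.91 (6.59 to 9.43). Mmp7, the protease that activates Paneth defensins, had 2.98 (1.91 to 4.43) and 1.84 (1.23 to 2.64). Reference barcodes were 136 others with at least 20% Paneth UMIs. They had 10.97 FPM for Lyz1 (4.73 to 21.6), the same for Itln1, and 15.1 for Mmp7 (7.53 to 26.98). Enterocyte-marker others had 8.91 (5.77 to 13.16), 5.35 (2.99 to 8.82) and 0 (0 to 1.32). Intervals of Lyz1 and Itln1 overlapped between these references, so these peaks cannot decide if Paneth chromatin differed. Mmp7 did separate them, and it was higher in stem-high members, but on 24 and 29 fragments its intervals overlapped.

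Named genes outside the lists were lower or higher in stem-high members. Car4, a carbonic anhydrase, had 15.7 UPM in stem-high and 56.9 in stem-low members (log2 -1.86, interval -2.41 to -1.34), Rbp7, a retinol-binding protein, 8.07 and 22.9 (-1.502), and Nqo1, a quinone reductase, the same levels (-1.502). Of 24 enterocyte markers none was at least 2-fold lower or higher (median -0.18), and of 19 early absorptive factors none was either. Over all genes, 1.94% were higher and 0.707% lower. Without the top Scrublet scores, 2 of 21 enterocyte markers (median -0.48) and 1 of 19 early absorptive factors (-0.35) were lower, and none was higher. Highest outside the lists was Acss3, a mitochondrial acyl-CoA synthetase, with 43.9 and 5.35 UPM (3.04, interval 2.36 to 3.78).

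Chromatin was compared between the same members. Over all 50664 peaks, 1.48% were higher and 0.405% lower in stem-high members. Of 14867 promoters, 42 were at least 2-fold higher in stem-high members (0.283%) and 8 lower (0.0538%). The Ascl2 promoter, of a factor that sets stem cell fate, had 20.5 FPM in stem-high and 9.68 in stem-low members (log2 1.08, interval 0.75 to 1.41). Msi1 stood at 0.87, Foxa2, a secretory-lineage factor, at 0.85, Sp5, a Wnt target, at 0.76, and Lgr5, the receptor that marks crypt stem cells, at 0.65. RNA of Ascl2 and Lgr5 chose the stem-high members, so their promoters are given as a description. The Rbp7 promoter stood at -0.80 and that of Car4 at -0.72. Of 150 mitotic-list promoters none was at least 2-fold higher or lower (median -0.06).

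**Figure D4:**
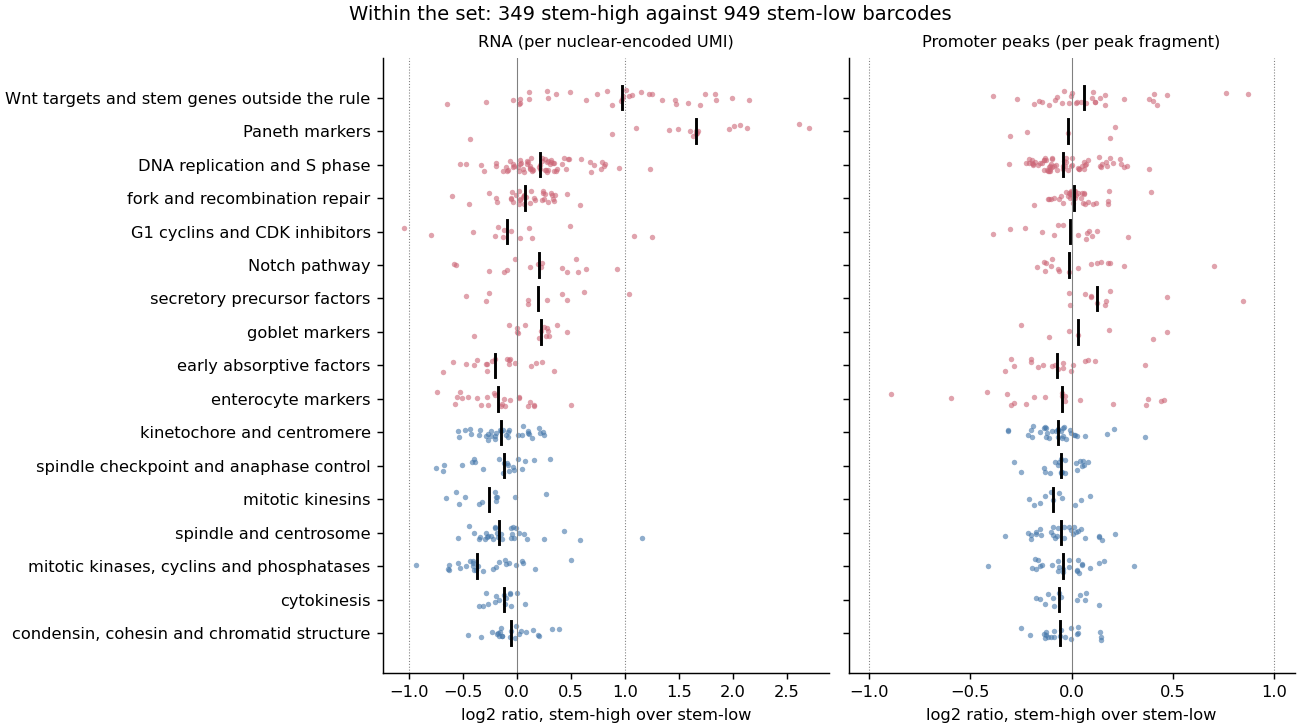
Each point is a gene of the list on the left, with its log2 ratio of stem-high over stem-low members on the horizontal axis for RNA (left) and promoter peaks (right), black bars for list medians and dotted lines at 2-fold. Mitotic lists (blue) centre near 0 on both sides, while Wnt and stem genes (median 0.97) and Paneth markers (1.66) lie to the right in RNA.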

How the data were processed

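RNA and open chromatin were measured with 10x Multiome in the same cells of 1 mouse (2 libraries). The deposited values are raw counts per barcode from Cell Ranger ARC 2.0.2 on mm10, per the submitters' processing notes, with UMIs for 55401 genes and counts in 146191 peaks (71697164 UMIs and 197564789 peak counts in all). Of the peak values 87.6% were even, so each was halved and rounded up to fragments. No column of samples was left unused (0). UMIs and fragments were summed over each group, and ratios and exact conditional Poisson intervals were computed with python 3.11.15, numpy 2.4.6, pandas 2.3.3 and scipy 1.17.1, and tested on simulated data. A gene needed 50 UMIs over both groups and a promoter peak 100 fragments. Called means at least 2-fold, since with 1 animal there is no test. Scrublet (scanpy 1.11.5) marked 0 of 9872 barcodes at its automatic threshold, which means that it had not worked, so doublets were left in and the highest 8% of scores removed as an alternative. Named genes were up to 4 highest and 3 lowest per list past 2-fold, 10 highest and 10 lowest outside the lists with at least 100 UMIs, and fixed check genes. Other genes (Cenpa, Cdc20, Kif11, Diaph3, Ccna2, Ccne2, H1f5, H2bc4, Lgr5 and single promoters) were chosen after their values were seen. The members, lists and comparisons were chosen with earlier results of these data known, and the lists overlap in part. Counts per gene depend on how multi-mapped and antisense reads were assigned, which is not given in the sources used here.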

Additional observations from a re-analysis of the deposited data

How the results depend on the processing

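No paired analysis was possible because the series holds 1 animal, and for the same reason no replicate could be left out. The share of barcodes in the set was 15.4% with a rule sum of at least 4, 10.1% with at least 10, 23.1% after thinning to 1500 UMIs with a sum of at least 3, 29.8% among barcodes with at least 2000 nuclear-encoded UMIs, 18.4% without barcodes over 80% mtDNA-encoded and 11.8% without the top Scrublet scores. Genes at least 2-fold higher and lower numbered 4657 and 536 per UMI of all kinds, 1597 and 2236 with a minimum of 10 UMIs, 365 and 609 at 3-fold, 459 and 346 against stem-gene others, and 259 and 89 against S-phase others, and 850 were lower with a minimum of 200 UMIs. Restricting both groups to barcodes under 3000 nuclear-encoded UMIs, chosen after seeing the data, gave 1350 higher. Between 88 and 143 mitotic-list genes were at least 2-fold higher over these settings. The log2 ratio of mtDNA-encoded mRNA was -0.599 above 2000 UMIs, -2.212 without the top Scrublet scores, -0.514 without barcodes over 80%, -1.721 with a rule sum of at least 10, -1.011 per UMI of all kinds, 0.032 against stem-gene others and -0.033 against S-phase others. The fold of peak fragments, 2.37, was 1.37 above 2000 UMIs, 1.14 against stem-gene others and 1.19 against S-phase others. The promoter log2 ratio of mitotic lists was 0.122 above 2000 UMIs, 0.173 without the top Scrublet scores, 0.136 without barcodes over 80%, 0.127 against stem-gene others and 0.12 against S-phase others. Among lists with a median past 2-fold, the sign changed for goblet markers (0.249 and 0.565 against stem-gene and S-phase others), replication genes (-0.549) and the S-phase comparison genes (-0.931) against S-phase others. Medians under 2-fold also changed sign against the progenitor groups, among them Wnt and stem genes (-0.773 and -0.291 against stem-gene and S-phase others), nucleotide synthesis (-0.115 and -0.265) and ribosome biogenesis (-0.178 against S-phase others). Within the set, stem-high members were 42.1% with a stem sum of at least 3, 15.7% with at least 8 and 16.3% after thinning. Genes higher and lower in them numbered 361 and 22 per UMI of all kinds and 66 and 11 with a minimum of 200 UMIs, and 131 were lower for sums of at least 8 against 0 or 1 and 168 without the top Scrublet scores, and without the Paneth-rich barcodes the counts were 173 and 72. The cause of these changes was not tested, apart from fewer genes or members where a minimum or a threshold was raised.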
